A study of Mus musculus with 6 samples.

Results

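The transcripts described here are those of 9 complement components and regulators: C1qa, C1qb, C1qc, C1ra, C3, C4b, C3ar1, Serping1 and Cd59a. They were taken by gene symbol from the 55809 symbols of the deposited count files, and all 9 were found and passed the filter on low counts. The RNA was from adult C57BL6J mice aged 8 weeks and came from dorsal root ganglia, the clusters beside the spinal cord that hold the cell bodies of sensory neurons with their glia, vessels and macrophages. The 3 prenatal stress pools held ganglia of offspring of dams that had been held in restraint tubes, brightly lit, for 30 min at a time, in 3 sessions daily from embryonic day 13 to 18. The 3 control pools held ganglia of offspring whose dams were left undisturbed. Each pool combined 3 mice, and the parents in both groups were mated at 8 to 10 weeks of age. The series text places the sessions slightly later, and gives 9 mice a group where the protocol gives 3. Litter and sex are not stated for a pool, so a p-value here reflects how far pools of a group differ, which may not cover the differences among litters.

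Complement is a cascade of plasma and cell surface proteins that marks targets for removal. In the classical pathway C1q, built from A, B and C chains, binds a target and switches on the proteases C1r and C1s, which cleave C4 and C2. All pathways meet at C3, whose fragments coat the target or act on receptors such as C3aR, and the terminal proteins can form a pore that Cd59 blocks. Most plasma complement comes from the liver, while C1q is made mainly by macrophages and their relatives, and in nervous tissue C1q and C3 are known for tagging synapses and debris.

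The libraries held 51749334 to 77603221 gene counts in prenatal stress pools and 65046802 to 87421228 in control pools. The sensory neuron marker peripherin (Prph) stood at 1044 to 1078 CPM (gene counts scaled to library size with TMM factors) in prenatal stress pools and at 1032 to 1050 CPM in control pools. Prph was 1 of 12 sensory neuron markers, of which 7 had a higher and 5 a lower fitted level in prenatal stress pools. Groups did not overlap for 1 of the higher (Nefl) and 2 of the lower markers (Tubb3 and Nefm), against 18.1% of all tested genes. Of 10 hepatocyte markers only 4 passed the low-count filter, and albumin (Alb) was at or below 0.0775 CPM in every pool. Prenatal stress pool 1 stood apart in blood and immune transcripts: all 10 neutrophil and marrow markers and 13 of 18 macrophage markers were lowest there, and the 10 neutrophil and marrow markers were all highest in prenatal stress pool 3. Results that rest on prenatal stress pool 1 are given with and without it.

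Because copies of a gene can share reads, each complement transcript was compared with all other transcripts of the GENCODE M21 annotation. C4b has a close copy in C4a, C1ra in C1rb, and Cd59a, more loosely, in Cd59b. The C4b transcript matched C4a at 95.9% identity over 5378 bases and C1ra matched C1rb at 97.9% over 2431 bases. Cd59a matched Cd59b at 83.2% over 739 bases. Over shorter stretches, C1ra also matched the pseudogene Gm18840 at 96.6% over 506 bases and Abhd12b at 81.2% over 260 bases. The 75-base stretch of the C4b coding sequence that differs most from C4a is shown because the differences are what lets a read be given to either gene. It covers coding positions 2690 to 2764, counted from the first base of the start codon, and capitals mark the 13 bases that differ.
C4b: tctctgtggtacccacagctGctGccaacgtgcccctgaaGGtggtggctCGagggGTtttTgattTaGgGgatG
C4a: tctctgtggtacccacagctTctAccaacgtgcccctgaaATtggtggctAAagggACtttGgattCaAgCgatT
Over the whole coding sequence 201 of 5204 aligned bases differed, and 16.4% of windows of 100 bases were identical in both. A read lying wholly inside such a window, with any mate, matches both genes. The share of such reads was not tested. C4b had 73 to 81 counts for each count of C4a in prenatal stress pools and 64 to 118 in control pools. The C1ra copy C1rb had at most 2 counts in any pool, and counts of Gm18840 and Abhd12b are not given here.

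Promoters are shown for the C1q chains found in the RefSeq table (GRCm38.p6), whose genes neighbour each other on chromosome 4, and for C3. Windows were found for 6 of the 9 genes. The sequences are the 250 bases before the start used in that table, and the C1qc gene, as listed in the same build, ends at 136892936 and so reaches a little into its window. In them capitals mark matches on either strand to GAGGAA (a core of macrophage and ETS factor sites) or TTGCNNAA (C/EBP-like).
C1qb, chr4:136886201-136886450, minus strand: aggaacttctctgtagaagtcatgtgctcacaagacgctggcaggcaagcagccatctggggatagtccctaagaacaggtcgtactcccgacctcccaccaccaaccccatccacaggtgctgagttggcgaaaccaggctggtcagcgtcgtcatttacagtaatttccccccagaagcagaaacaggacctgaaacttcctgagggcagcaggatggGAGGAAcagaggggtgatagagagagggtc
C1qc, chr4:136892915-136893164, minus strand: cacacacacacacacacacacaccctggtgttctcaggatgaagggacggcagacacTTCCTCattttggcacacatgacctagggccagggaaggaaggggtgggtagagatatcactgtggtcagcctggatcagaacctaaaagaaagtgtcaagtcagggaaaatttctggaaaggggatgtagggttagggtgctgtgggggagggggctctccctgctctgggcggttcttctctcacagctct
C3, chr17:57228137-57228386, minus strand: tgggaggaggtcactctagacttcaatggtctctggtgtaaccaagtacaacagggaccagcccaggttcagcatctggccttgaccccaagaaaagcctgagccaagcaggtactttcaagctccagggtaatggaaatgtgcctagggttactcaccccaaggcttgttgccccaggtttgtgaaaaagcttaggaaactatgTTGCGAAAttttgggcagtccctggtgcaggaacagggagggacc
GAGGAA occurred once in each of the C1qb and C1qc windows, as it did in 23.3% of all 32851 windows, and was not found in the C3 window. TTGCNNAA occurred in the C3 window and in 9.56% of all windows. TTCNNNGAA (STAT-like) and an interferon response-like motif, which are in 7.02% and 2.98% of all windows, did not match in these 3 windows. Of the other windows, that of Cd59a held 1 match to GAGGAA and 1 to the interferon response-like motif, and those of C1ra and C3ar1 held no match to any of the 4 motifs.

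None of the 9 complement genes passed the edgeR quasi-likelihood test with Benjamini-Hochberg adjustment at 0.05, where 0.129% of all 20146 tested genes did (0.0844% higher and 0.0447% lower in prenatal stress). Just 1 of them, C4b, had an unadjusted p under 0.05, against 11.1% of all tested genes (6.01% higher and 5.11% lower). It was also the only one of the 9 whose pools did not overlap between the groups, against 18.1% of all tested genes (9.33% higher and 8.76% lower). With the DESeq2 Wald test C4b was called, where 2.2% of 15004 genes were. Fitted values were negative for 8 of 9 genes, with a median log2 fold change (prenatal stress over control) of -0.10, while 47.7% of all tested genes were negative with a median of 0.0066. That count was 5 of 9 without prenatal stress pool 1 and 9 of 9 without control pool 2.

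C4b encodes complement C4, which is cleaved by C1s and then attaches to the target surface. It stood at 97.4, 107 and 99.2 CPM in prenatal stress pools 1 to 3 and at 123, 126 and 119 CPM in control pools 1 to 3. Every prenatal stress pool was below every control pool, and without the lowest, pool 1, the fitted value was -0.26. Means were 101 ± 5.02 CPM in prenatal stress pools and 123 ± 3.12 CPM in control pools (SD, n = 3 each), a log2 fold change of -0.28 ± 0.04 SE with a 95% interval of -0.38 to -0.18. The edgeR adjusted p was 0.117 (unadjusted 0.000296, rank 51 of 20146 genes by p). It passed with the DESeq2 Wald test (adjusted p = 2.18e-06) and in edgeR without the low-count filter (adjusted p = 0.0233), with a range of 2.18e-06 to 0.53 over 11 alternatives, and the fold stayed between -0.32 and -0.26 in all 11. With the replicate number as a block edgeR gave -0.28, adjusted p = 0.111.
The copy C4a stood at 1.27, 1.47 and 1.22 CPM in prenatal stress pools and at 1.92, 1.06 and 1.47 CPM in control pools, with overlapping groups (-0.17 ± 0.23, edgeR adjusted p = 0.836).

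The summed level of 10 satellite glia markers did not overlap between the groups either. It stood at 2980, 3158 and 2825 CPM in prenatal stress pools and at 3185, 3550 and 3297 CPM in control pools, and all 10 markers had negative fold changes with a median of -0.17. C4b amounted to 3.27%, 3.38% and 3.51% of that sum in prenatal stress pools and to 3.87%, 3.54% and 3.62% in control pools, so its share of the sum was also below the control range. The part of satellite glia in the C4b values was not tested. In whole ganglia, fewer cells of a type and less RNA per cell cannot be told apart.

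The 3 C1q chains make up the protein that starts the classical pathway. C1qa had 10.9, 14.9 and 14.7 CPM in prenatal stress pools and 14.6, 13.9 and 15.0 CPM in control pools. C1qb had 10.2, 14.03 and 13.9 CPM in prenatal stress pools and 15.2, 13.9 and 15.4 CPM in control pools. C1qc had 10.3, 13.7 and 11.6 CPM in prenatal stress pools and 12.5, 11.7 and 12.6 CPM in control pools. Each chain was lowest in prenatal stress pool 1, and the groups overlapped for all 3.
The log2 fold changes were -0.10 ± 0.12 SE for C1qa, -0.22 ± 0.12 for C1qb and -0.05 ± 0.10 for C1qc (edgeR adjusted p = 0.805, 0.544 and 0.906). Their 95% intervals ran from -0.38 to 0.18, from -0.51 to 0.07 and from -0.29 to 0.20. Without prenatal stress pool 1 the values were 0.027 for C1qa, -0.091 for C1qb and 0.039 for C1qc.

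The macrophage marker sum was lowest in prenatal stress pool 1, as the chains were, and highest in prenatal stress pool 3, where they were not. That sum was 107, 144 and 155 CPM in prenatal stress pools and 128, 128 and 142 CPM in control pools over 18 markers, all of which were tested, 11 with negative values and a median of -0.03. The chains together amounted to 29.4%, 29.6% and 25.9% of the macrophage sum in prenatal stress pools and to 33.1%, 30.7% and 30.3% in control pools, so every share in prenatal stress pools was below every share in control pools. In prenatal stress pool 3, with the lowest share, 9 of the 18 markers had their highest level, among them Ptprc (14.8 CPM) and Cd163 (11.5 CPM). The shares thus depend on the marker list as well as on the chains, and no test was run on them. The part of macrophage content in the C1q values was not tested.

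Chain proportions were compared per kb of transcript, since the 3 chains join in fixed numbers in the C1q protein. The ratio of C1qa to C1qb was 1.12, 1.11 and 1.11 in prenatal stress pools and 1.01, 1.05 and 1.01 in control pools. The groups did not overlap. The 95% counting intervals of single pools overlapped, as at 0.997 to 1.23 in prenatal stress pool 3 and 0.921 to 1.10 in control pool 1. They rest on 718 to 1344 reads per chain and pool, and cannot decide whether the groups differ. The ratio of C1qc to C1qb was 0.912, 0.884 and 0.756 in prenatal stress pools and 0.748, 0.763 and 0.739 in control pools, with overlapping groups. No test was run on these ratios.

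C1ra encodes the protease C1r, which C1q binding activates. It had 8.42, 8.81 and 8.08 CPM in prenatal stress pools and 10.9, 8.84 and 8.78 CPM in control pools. Control pool 1 was above the rest, control pool 2 lay just above the highest prenatal stress pool and control pool 3 just below it, so the groups overlapped through that 1 pool (-0.17 ± 0.10, edgeR adjusted p = 0.56; -0.062 without control pool 1). The partner protease C1s1, which C1r activates, had 23.8, 26.4 and 23.4 CPM in prenatal stress pools and 28.0, 23.8 and 22.3 CPM in control pools (-0.01 ± 0.09, edgeR adjusted p = 0.987). Per kb, C1s1 stood at 2.86, 3.04 and 2.93 times C1ra in prenatal stress pools and at 2.61, 2.72 and 2.57 times in control pools. These ratios did not overlap between the groups. The 95% counting intervals of single pools overlapped, as at 2.62 to 3.14 in prenatal stress pool 1 and 2.47 to 3.00 in control pool 2. Such an interval describes a single pool and cannot decide whether the groups differ, and no test was run.

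C3, the protein on which all pathways converge, had the widest spread between prenatal stress pools of the 9 genes on the log2 scale. It had 10.6, 19.8 and 16.7 CPM in prenatal stress pools and 16.8, 19.3 and 16.8 CPM in control pools. Prenatal stress pool 1 was lowest and prenatal stress pool 2 highest, with the control pools between them (-0.17 ± 0.20, 95% interval -0.64 to 0.31, edgeR adjusted p = 0.811). Without prenatal stress pool 1 the value was 0.043. As a share of the macrophage marker sum, C3 stood at 9.95%, 13.7% and 10.8% in prenatal stress pools and at 13.2%, 15.0% and 11.8% in control pools.

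C3ar1 encodes the receptor for the C3a fragment and was the scarcest of the 9 transcripts. It had 1.83, 2.12 and 2.13 CPM in prenatal stress pools and 2.31, 1.29 and 1.96 CPM in control pools. Control pool 2 was lowest and control pool 1 highest, and the fitted value of 0.13 ± 0.22 (95% interval -0.38 to 0.63, edgeR adjusted p = 0.873) became -0.079 without control pool 2. It was the only positive value among the 9.

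Of the inhibitors, Serping1 (the C1 inhibitor, which inactivates C1r and C1s) had 161, 156 and 156 CPM in prenatal stress pools and 182, 159 and 153 CPM in control pools. Control pool 1 was highest and the groups overlapped (-0.06 ± 0.06, edgeR adjusted p = 0.775; 0.018 without control pool 1). That pool also had the highest sum of 14 fibroblast markers, which stood at 2162, 2193 and 1837 CPM in prenatal stress pools and at 2534, 1949 and 1819 CPM in control pools, with 12 of the 14 highest in control pool 1. The part of connective tissue in the Serping1 and C1ra values was not tested. Cd59a, a lipid-anchored surface protein that blocks the terminal pore, had 107, 98.1 and 105 CPM in prenatal stress pools and 110, 106 and 104 CPM in control pools. The groups overlapped, and its 95% interval of -0.15 to 0.06 (-0.04 ± 0.04, edgeR adjusted p = 0.748) was the narrowest of the 9.

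**Figure D1:**
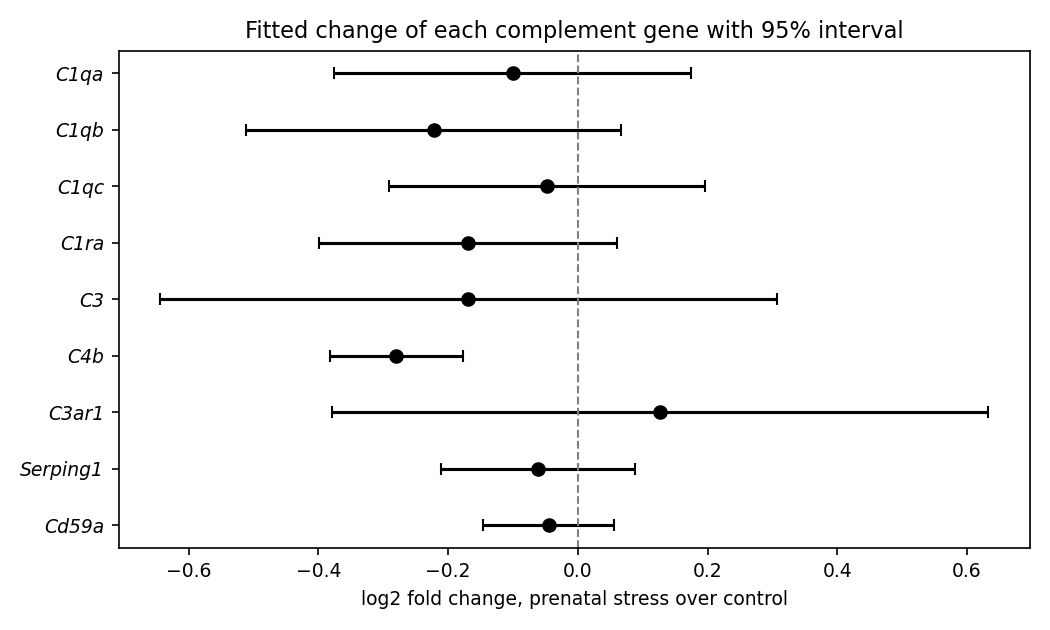
Fitted log2 fold change of each gene, prenatal stress over control, with its 95% interval from the edgeR fit over all genes. The interval of C4b, from -0.38 to -0.18, lies below 0, and those of the other 8 genes include 0.

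**Figure D2:**
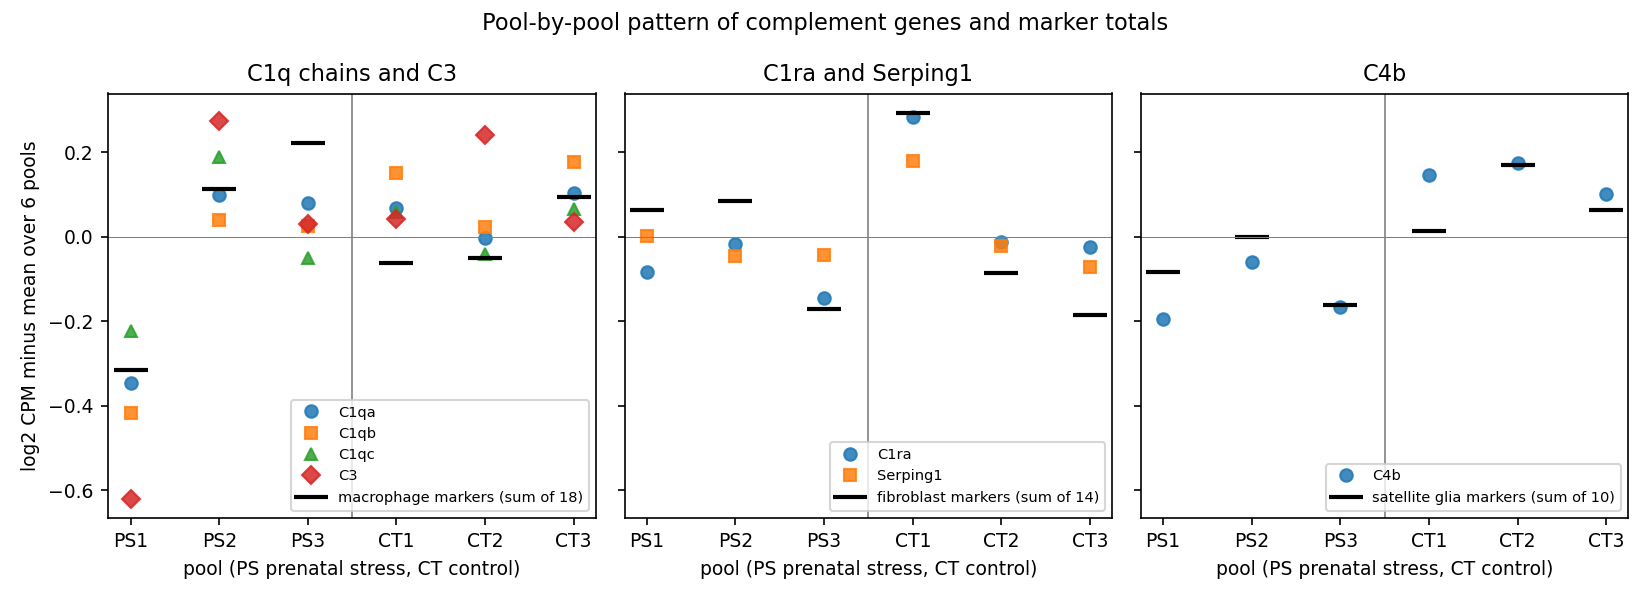
Log2 level in each pool minus the mean over 6 pools, for C1q chains and C3 (left), C1ra and Serping1 (middle) and C4b (right), with the summed macrophage, fibroblast or satellite glia markers as black bars. In prenatal stress pool 1 C3 lies 0.62 and C1qb 0.42 below its mean, and in control pool 1 C1ra lies 0.28 above its mean.

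Ordered by level per kb of transcript, regulators led the 9 genes and the receptor came last. Serping1 averaged 91.1 CPM per kb over the 6 pools, Cd59a 58.2 and C4b 20.8, and the pool ranges of these 3 did not overlap. The C1q chains followed at 13.5 for C1qa, 12.7 for C1qb and 10.0 for C1qc, with overlapping ranges. C3 at 3.24 and C1ra at 3.01 CPM per kb overlapped too, and C3ar1 stood at 0.451. By the same measure, over all 57 complement genes, Serping1 ranked 3 and Cd59a 4, after the surface regulator Cd55 (226 CPM per kb) and the secreted chaperone clusterin (Clu, 179).

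**Figure D3:**
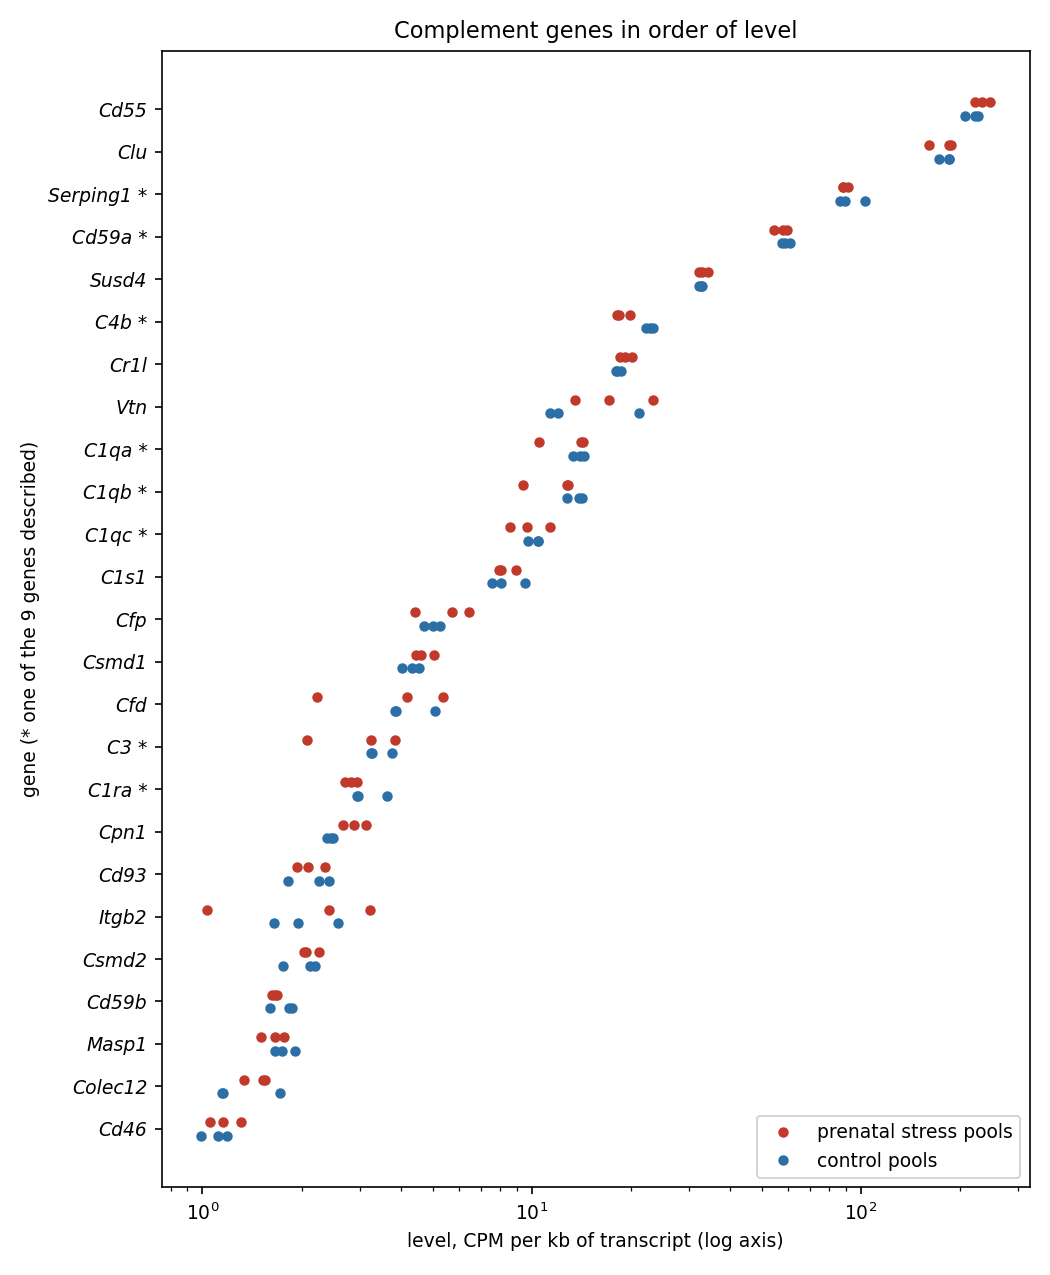
Level in CPM per kb of transcript (log axis) of 25 complement genes with a mean of at least 1, in order of level, with each of the 3 prenatal stress pools (red) drawn above the 3 control pools (blue). Stars mark those of the 9 genes described that are plotted, from Serping1 at 86.6 to 103 down to C1ra at 2.71 to 3.64. C3ar1 lies below the plotted range.

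The rest of the complement system gave no gene past the edgeR threshold. Of 57 complement genes, the 9 included, 46 were tested, 22 with positive and 24 with negative values and a median log2 fold change of -0.01. With the 9 left out, 37 were tested, 21 with positive and 16 with negative values and a median of 0.064. Unadjusted p was under 0.05 for 3 of the 46, C4b, Colec10 and Cpn1. Groups did not overlap for those 3 and for the pore component C7 (-0.26 ± 0.14, edgeR adjusted p = 0.526), against 18.1% of all tested genes. Colec10, a collectin that recognises sugars for the lectin pathway, was close to the detection limit at 8, 5 and 4 counts in prenatal stress pools and 17, 20 and 23 counts in control pools (-1.63 ± 0.29, edgeR adjusted p = 0.18). Cpn1, the catalytic subunit of the carboxypeptidase that inactivates C3a, had 5.73, 5.28 and 4.90 CPM in prenatal stress pools and 4.50, 4.56 and 4.36 CPM in control pools (0.25 ± 0.09, edgeR adjusted p = 0.403).
By role, the classical initiation genes had 8 of 9 tested members negative (median -0.17), the lectin genes 5 of 8 (median -0.08) and C3 with the alternative pathway 2 of 3 (median -0.13). Terminal genes had 1 of 3 negative (median 0.25), receptors 3 of 8 (median 0.12) and regulators 5 of 15 (median 0.06). Of all tested genes 47.7% were negative. Without prenatal stress pool 1, C1qa (0.027), C1qc (0.039) and C3 (0.043) were positive, and 19 of 46 complement genes were negative. The genes that failed the low-count filter were C1rb, Mbl1, Cfb, C6, C8a, C8b, C9, Vsig4, Cd55b, C4bp and Cpn2.
Surface and fluid regulators held ranks 1 (Cd55) to 5 (Susd4) by level per kb, and no regulator passed the edgeR threshold. Cd55, which speeds decay of the C3 convertase, averaged 592 ± 32.1 CPM in prenatal stress pools and 553 ± 25.6 CPM in control pools (0.10 ± 0.05, edgeR adjusted p = 0.52). Clu stood at -0.02 ± 0.06, Cr1l (the rodent regulator Crry) at 0.08 ± 0.04 and vitronectin (Vtn) at 0.28 ± 0.28. Susd4 stood at 0.02 ± 0.03, Csmd1 at 0.13 ± 0.06 and Csmd2 at 0.06 ± 0.09. Outside the regulators, Colec12 of the lectin list stood at 0.14 ± 0.16 and Cd93 of the receptor list at -0.02 ± 0.12. None of these 9 had an unadjusted p under 0.05.

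The remaining marker sums overlapped between the groups. Schwann cell markers summed to 6552 to 8557 CPM in prenatal stress pools and 7455 to 8644 CPM in control pools, and sensory neuron markers to 17711 to 18820 CPM in prenatal stress pools and 18276 to 18852 CPM in control pools. Endothelial and mural markers summed to 476 to 538 CPM in prenatal stress pools and 500 to 521 CPM in control pools, and central nervous system glia markers to 59.2 to 300 CPM in prenatal stress pools and 51.2 to 202 CPM in control pools. Neutrophil and marrow markers summed to 48.1 to 436 CPM in prenatal stress pools and 147 to 321 CPM in control pools. Interferon-induced genes, 16 of 16 with negative values, summed to 329 to 400 CPM in prenatal stress pools and 394 to 443 CPM in control pools. Those sums overlapped only through prenatal stress pool 3 (400) and control pool 1 (394). Their median was -0.29, and none was called. Of the 16, 7 had an unadjusted edgeR p under 0.05 (11.1% of all tested genes) and 5 did not overlap between the groups (18.1%). The hepatocyte sum of 44.9 to 102 CPM in prenatal stress pools and 47 to 70.9 CPM in control pools was nearly all transferrin (Trf), which glia also make.

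The genes whose level followed C1qb most closely over the 6 pools, among 10369 others with at least 10 CPM, were C1qa, the tubulin Tuba1c and the peptide transporter Tap1. Their root mean square differences from C1qb were 0.06, 0.07 and 0.08 on the centred log2 scale. For C3 they were the lysosomal protease Ctss (0.13), Tuba1c (0.15) and Oaf (0.16). For C4b they were Arhgef15 (0.03), the growth cone protein Gap43 (0.03) and galectin-1 (Lgals1, 0.04). Having been picked for their likeness to C4b, they too were lower in all 3 prenatal stress pools than in the control pools, which is no separate observation.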

How the data were processed

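Each library had 1 deposited file of whole-number read counts by gene symbol, not normalized by the authors. The submitters' processing notes list FastQC, STAR 2.4, HTSeq 0.9.1 and both GRCm39 and mm10. For these counts, build and strandedness of counting: not given in the sources used here. Per the labels' protocols, libraries were stranded, poly-A selected and amplified for 11 PCR cycles, and the input was 3000 ng of RNA (RIN 8.2 to 8.6). The rows for reads assigned to no gene, 15.3% to 16.2% of a library, stayed out of library sizes and tests.

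The test used edgeR 4.0.16 (R 4.3.3) on the counts as deposited: filterByExpr (minimum count 10), TMM factors and its quasi-likelihood F test (prenatal stress over control), Benjamini-Hochberg adjusted over 20146 genes with a threshold of 0.05. A standard error is the log2 fold change over the square root of F. Counting intervals are exact binomial at 95% and cover counting error only. Levels per kb used the longest coding transcript of GENCODE M21, or the longest transcript of a gene with none. That annotation held 50664 of the 55809 symbols. Copies were found with blastn 2.17.0 (at least 80% identity over 200 bases), and C4b was aligned to C4a with MAFFT 7.526. The edgeR steps were tested on simulated data.

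Alternatives were DESeq2 1.42.0, RLE and upper-quartile factors, no filter, each pool left out, and the replicate number as a block. Same-numbered pools deviated together (r = 0.42, 0.21 and 0.17 over 15240 genes). Prenatal stress pool 2 and control pool 3 did so too (r = 0.12). The labels give replicate numbers but state no pairing, so the main test was unpaired and the block was run only as an alternative. The genes, lists and tests were chosen with earlier results of these data known. Named genes were the 9, their copies, and complement genes at 10 CPM or more or with an unadjusted p under 0.05. Likeness was taken for C1qb, C3 and C4b on log2 CPM with a pseudocount of 0.5. One complement gene that this rule names is not reported here. C7 was named after its values were seen.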

Additional observations from a re-analysis of the deposited data

How the results depend on the processing

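Of 99 values (9 genes under 11 alternatives), 92 kept both their direction and their side of the threshold. C4b was called without the low-count filter (-0.29) and with DESeq2 (-0.28), so 1 of the 9 genes and 1 of the 57 complement genes was called under each of these. Over all genes the count of 26 (0.129% of 20146) became 49 without the filter (0.139% of 35147) and 330 with DESeq2 (2.2% of 15004). With 1 pool left out it was 2 to 14. The replicate block gave 22 genes over all, C4b at -0.28, and changed no call of the 9. With 1 pool left out, no complement gene was called, and values ranged from -0.18 to 0.027 for C1qa, -0.17 to 0.039 for C1qc, -0.37 to 0.043 for C3, -0.079 to 0.31 for C3ar1 and -0.11 to 0.018 for Serping1. The median of the wider list ranged from -0.040 to 0.041. Other scalings moved the median of all genes by at most -0.0074. The cause of these shifts was not tested. The number of pools limits precision, and depth does for scarce transcripts: among the 9 genes only C3ar1, at 84 to 171, had under 400 counts in any pool.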
